A study of Homo sapiens with 2 samples.

Results

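Core genes of the circadian clock were examined in J82, an established human bladder cancer cell line. The 10 genes considered were PER1, PER2, PER3, CRY1, CRY2, CLOCK, NR1D1, NR1D2, DBP and BHLHE40. They were chosen by name from knowledge of the pathway, with earlier results of these arrays known. Values were read from probe sets that the platform annotation assigns to a single gene. By that rule 8 of the 10 were measured, among 14232 genes in all. PER3 was represented by 1 probe set that is also annotated to the neighbouring gene UTS2, and NR1D1 by 2 probe sets also annotated to the overlapping gene THRA, so neither has a value here. Each of the 8 measured genes had 1 probe set.

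J82 cells were grown in serum-containing medium, stained with the DNA dye Hoechst and sorted by flow cytometry. One sort was the side population (SP), which keeps little dye because transporters pump it out, and the other was the non-side population (NSP), which retains it. RNA from each was run on 1 human exon array, so neither population has a replicate and no difference below carries an error, an interval or a p-value. All values describe these 2 arrays of 1 cell line. The labels give no time of collection and mention no treatment that sets the phase of the clock. In an array of a sorted population, fewer cells that express a gene and less of its RNA per cell cannot be told apart.

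The circadian clock is a feedback loop of transcription that runs in most cells of the body. CLOCK and its partner BMAL1 bind E-box sequences and activate the PER and CRY genes, whose proteins return to the nucleus and repress CLOCK and BMAL1. A second loop passes through the nuclear receptors NR1D1 and NR1D2 (REV-ERB alpha and beta), which repress BMAL1, and the ROR receptors, which activate it. In a culture that has not been synchronised, the cells are spread over the phases of the cycle and a population average flattens the rhythm. Some clock genes, PER1 and BHLHE40 among them, are also induced directly by signals from outside the cell.

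Clock proteins act on each other's genes through short DNA elements, some of which lie close to the transcription start. The 250 bases before the annotated start are printed here for the gene with the widest difference between the arrays (BHLHE40), for 3 genes with textbook clock elements (PER1, PER2 and NR1D2) and for the CRY paralogs, which differed in opposite directions. They are from RefSeq on GRCh38.p14, 5′ to 3′ on the gene's strand. Capitals mark the E-box CACGTG, the related E′-box CACGTT or AACGTG, and the D-box TTATGTAA or TTACATAA, wherever these letters occur on either strand. BHLHE40 lies at chr3:4979187-4979436 (+ strand), PER1 at chr17:8152405-8152654 (- strand), PER2 at chr2:238288611-238288860 (- strand), the downstream of the NR1D2 starts at chr3:23945871-23946120 (+ strand), CRY1 at chr12:107093550-107093799 (- strand) and the downstream of the CRY2 starts at chr11:45847225-45847474 (+ strand).
BHLHE40: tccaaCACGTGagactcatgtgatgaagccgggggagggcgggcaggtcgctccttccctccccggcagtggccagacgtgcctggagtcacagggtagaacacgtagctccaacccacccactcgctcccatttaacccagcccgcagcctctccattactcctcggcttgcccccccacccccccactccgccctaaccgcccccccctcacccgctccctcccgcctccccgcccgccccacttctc
PER1: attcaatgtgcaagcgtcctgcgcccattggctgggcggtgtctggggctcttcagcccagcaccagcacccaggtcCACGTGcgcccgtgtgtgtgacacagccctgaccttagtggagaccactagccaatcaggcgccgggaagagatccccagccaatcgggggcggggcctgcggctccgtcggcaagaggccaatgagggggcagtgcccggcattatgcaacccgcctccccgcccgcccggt
PER2: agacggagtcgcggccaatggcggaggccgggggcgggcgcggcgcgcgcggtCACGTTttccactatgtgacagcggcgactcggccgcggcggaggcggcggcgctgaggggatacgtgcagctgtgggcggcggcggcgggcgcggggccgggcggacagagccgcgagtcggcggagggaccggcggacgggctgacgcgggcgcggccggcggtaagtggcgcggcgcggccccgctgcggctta
NR1D2: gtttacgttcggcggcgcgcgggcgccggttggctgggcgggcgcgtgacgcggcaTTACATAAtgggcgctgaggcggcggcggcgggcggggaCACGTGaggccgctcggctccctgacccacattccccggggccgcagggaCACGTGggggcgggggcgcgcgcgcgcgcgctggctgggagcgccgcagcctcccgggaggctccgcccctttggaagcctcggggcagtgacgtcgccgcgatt
CRY1: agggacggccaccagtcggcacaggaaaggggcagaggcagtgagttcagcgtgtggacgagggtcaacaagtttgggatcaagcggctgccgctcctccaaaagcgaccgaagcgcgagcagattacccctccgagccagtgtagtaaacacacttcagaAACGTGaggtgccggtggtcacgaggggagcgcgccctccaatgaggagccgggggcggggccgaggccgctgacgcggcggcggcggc
CRY2: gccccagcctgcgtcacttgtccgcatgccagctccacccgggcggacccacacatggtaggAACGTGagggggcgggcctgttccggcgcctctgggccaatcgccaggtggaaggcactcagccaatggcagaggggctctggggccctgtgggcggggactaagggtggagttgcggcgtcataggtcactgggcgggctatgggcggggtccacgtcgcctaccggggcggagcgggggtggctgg

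All 10 genes matched a promoter window in the RefSeq table, with 14 windows between them because PER3, NR1D2, CLOCK and CRY2 have 2 annotated starts each. Each window searched for motifs runs from 250 bases before the start to 50 after it. The E-box occurred in 3 of the 14 windows, against 7.26% of all 35116 promoter windows in the table. PER1 has it 173 bases before its start and BHLHE40 245 bases before. The downstream start of NR1D2 has a pair of E-boxes, 155 and 105 bases before it, and a D-box at 194 bases. The E′-box occurred in 5 of 14 windows, against 5.34% of all windows. It lay 89 bases before the start of CRY1, 188 before the downstream start of CRY2, 197 before PER2, 187 before the downstream start of CLOCK and 168 before NR1D1. The D-box was found in 2 of 14 windows (NR1D2 and PER3), against 0.886% of all windows. A palindromic form, TTACGTAA, begins 3 bases before the start of PER2 and runs across it, and was present in 0.125% of all windows. The nuclear receptor core AGGTCA or TGACCT was present in 3 of 14 windows (PER1 and both starts of CRY2), against 13.8%. The shorter core of the cAMP response element (CRE), TGACG or CGTCA, was present in 7 of 14, against 24.6%. The full CRE, TGACGTCA, which contains that core, was in 0 of 14 windows and in 1.85% of all. PER3's windows overlap, so they share sequence. A match describes letters in the window and is no evidence of binding.

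**Figure D1:**
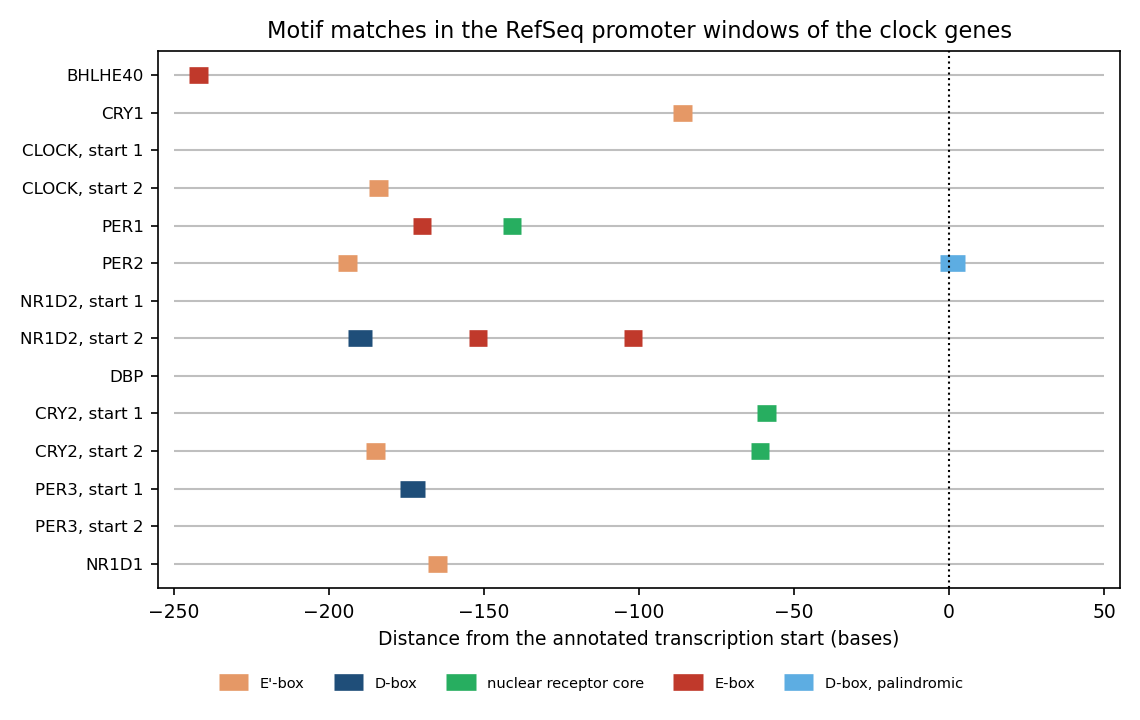
Positions of motif matches in the 14 RefSeq promoter windows of the 10 clock genes, one line per annotated start. The horizontal axis is the distance in bases from that start (dotted line), and colours name the motif. E-boxes lie in BHLHE40, PER1 and the downstream NR1D2 window, E′-boxes in CRY1, CLOCK, PER2, CRY2 and NR1D1, and DBP has no match to the motifs drawn.

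Array values are log2 signal per probe set. Medians were 7.43 in SP and 7.44 in NSP over 22011 probe sets. The median of all values, 7.44, is used as a floor for dim genes, and 7549 genes reached it on at least 1 array. Across them SP minus NSP centred on -0.05 (median) with a standard deviation of 0.281, and the middle 95% ran from -0.51 to 0.63. All 8 measured clock genes were above the floor on both arrays, between 7.58 and 11.87. Of the epithelial and mesenchymal genes that mark the line, KRT8, KRT18, VIM, CDH2, CD44 and KRT7, 6 of 6 reached the floor. KRT7 lay close to it, at 7.55 in SP and 7.53 in NSP, and 7549 of all 14232 genes reached it. Of the markers of other cell types, 1 of 4 leukocyte genes (CD14), 0 of 4 endothelial genes and 0 of 1 erythroid genes did. Signals of different probe sets depend on their probes, so levels are compared between the arrays for each gene and not between genes.

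Among the measured clock genes BHLHE40 alone differed by 1.5-fold or more. Its signal was 11.87 in SP and 10.99 in NSP, 1.85-fold higher in SP (0.89 on the log2 scale). BHLHE40 (DEC1) is a basic helix-loop-helix protein that binds E-boxes and represses genes driven by CLOCK and BMAL1. It ranked 68 among the 7549 genes by how far SP lay above NSP, and it lay outside the range that held 95% of genes. The other 7 clock genes lay inside that range. At 1.5-fold, 1 of 8 clock genes was higher in SP, against 3.10% of the 7549 genes, and 0 of 8 were lower, against 1.43%. At 1.2-fold, BHLHE40 was again the 1 gene higher (background 11.3%) and CRY2 the 1 gene lower (background 16.5%). The clock genes were chosen with earlier results of these arrays known, so these counts describe the set and test nothing.

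**Figure D2:**
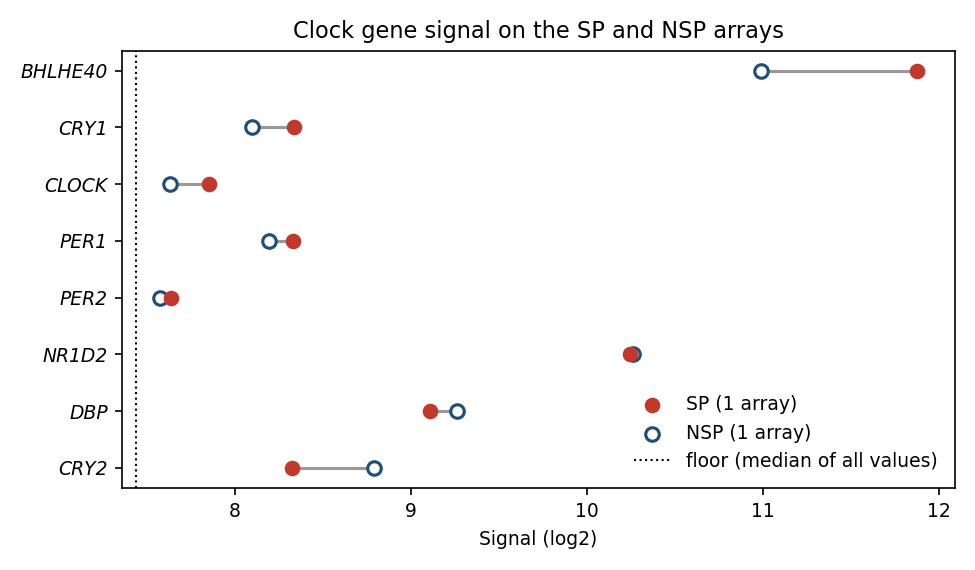
Log2 signal of the 8 measured clock genes (horizontal axis) on the SP array (filled points) and the NSP array (open points), ordered by SP minus NSP. The grey line joins the values of a gene, and the dotted line is the floor of 7.44. BHLHE40 has the widest gap, with SP to the right, and CRY2 the widest gap with SP to the left.

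Of the PER genes, which encode the repressor subunits whose level tracks the phase of the loop, PER1 and PER2 differed little. PER1 had a signal of 8.33 in SP and 8.20 in NSP, a difference of 0.13. PER2 had 7.64 in SP and 7.58 in NSP, a difference of 0.06. Both were slightly higher in SP, and a higher difference than that of PER1 was held by 21.4% of the 7549 genes and than that of PER2 by 30.4%. PER1 and PER2 thus lay well within the spread of genes in general. PER2 lay close to the floor of 7.44 on both arrays, where RMA narrows differences, so its small difference says little.

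The cryptochromes CRY1 and CRY2, which bind PER proteins and directly inhibit CLOCK and BMAL1, differed in opposite directions. CRY1 had a signal of 8.34 in SP and 8.10 in NSP, 1.18-fold higher in SP. CRY2 had 8.33 in SP and 8.79 in NSP, 1.38-fold lower in SP. The CRY1 difference of 0.24 exceeded the CRY2 difference of -0.47 by 0.71 on the log2 scale. Only 12.4% of genes had a higher difference than CRY1, whereas 96.5% had a higher one than CRY2. Neither gene reached 1.5-fold, and no replicate shows how far such values vary between sorts.

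CLOCK, the histone acetyltransferase subunit of the activator, had a signal of 7.86 in SP and 7.64 in NSP, 1.16-fold higher in SP. Its dimer partner BMAL1 had 7.89 in SP and 7.72 in NSP, a difference of 0.16. NPAS2, a paralog that can stand in for CLOCK, had 7.68 in SP and 7.42 in NSP, a difference of 0.26 with the NSP value just under the floor. These 3 genes had higher signals in SP, by 0.16 to 0.26 on the log2 scale, as did 40.1% of the 7549 genes by any amount. A higher difference was held by 13.8% of the 7549 genes for CLOCK, 18.4% for BMAL1 and 11.4% for NPAS2. All 3 were dim, near the floor of 7.44, and inside the range that held 95% of genes. BMAL2, the paralog of BMAL1, was under the floor on both arrays, at 6.01 in SP and 6.03 in NSP, a difference of -0.01.

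In the stabilising loop NR1D2, the heme-binding repressor of BMAL1, was nearly equal on the arrays, at 10.24 in SP and 10.26 in NSP. Its difference of -0.02 turned to 0.07 when the trend of difference on signal level was removed and to 0.02 after quantile normalisation, so it has no settled direction. RORA, which competes with NR1D1 and NR1D2 for the same sites and activates, had 8.23 in SP and 7.94 in NSP, a difference of 0.28. RORB, a relative best known from retina and brain, had 7.27 in SP and 7.81 in NSP, 1.45-fold lower in SP with the SP value under the floor. The RORA difference thus exceeded the RORB difference by 0.82.

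DBP, a proline and acidic amino acid-rich leucine zipper protein that activates through D-boxes and is a direct output of CLOCK and BMAL1, was 9.11 in SP and 9.26 in NSP. That is 1.11-fold lower in SP, and 67.0% of genes had a higher difference. NFIL3 (E4BP4), which represses through the same D-boxes, was 9.92 in SP and 9.11 in NSP, 1.76-fold higher in SP. The NFIL3 difference exceeded that of DBP by 0.96 on the log2 scale. The D-box activators TEF and HLF were under the floor on both arrays, at 7.23 and 6.18 in SP and 7.17 and 6.10 in NSP, with differences of 0.06 and 0.08.

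**Figure D3:**
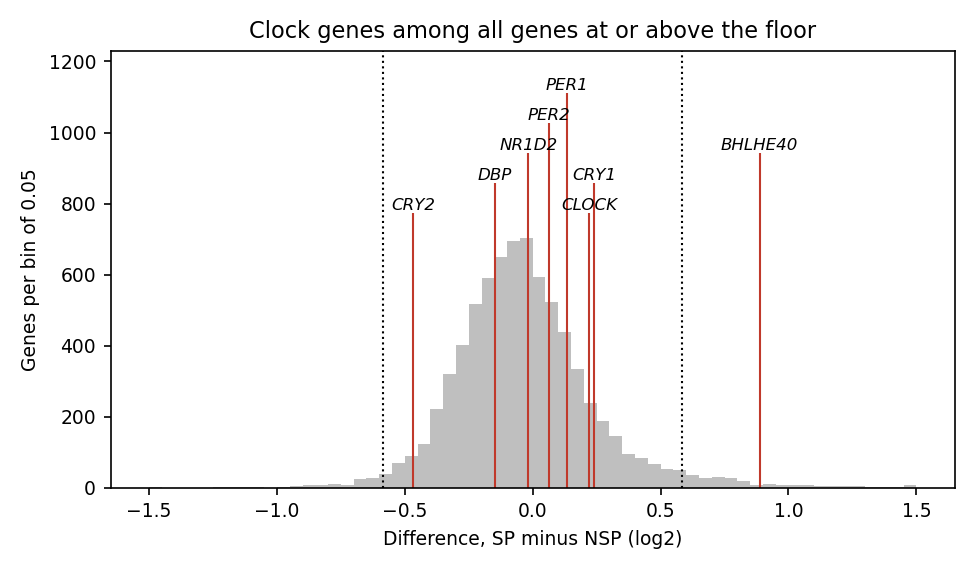
Histogram of SP minus NSP (log2, horizontal axis) for the 7549 genes at or above the floor, in bins of 0.05 with genes per bin on the vertical axis and the outermost bins holding all values beyond them. Red lines mark the 8 clock genes and dotted lines a 1.5-fold difference. BHLHE40 lies beyond the right-hand dotted line, and the other 7 genes lie between the dotted lines.

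Over the 8 measured clock genes, 5 had a higher signal in SP and 3 a lower one, with differences of 0.10 (median) and 0.11 (mean). Over the 7549 genes the median was -0.05, and 40.1% had a higher signal in SP. The median size of the difference, whatever its sign, was 0.18 for the clock genes and 0.16 for the 7549 genes. The 3 genes with CACGTG in a promoter window had differences of 0.89 (BHLHE40), 0.13 (PER1) and -0.02 (NR1D2), so these 3 promoters share the letters while the differences ranged widely.

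Of 60 further genes of the clock pathway, in 7 lists ordered by role, 46 were measured and 39 reached the floor. At 1.5-fold 8 of the 39 were higher in SP and 0 lower, and 31 of the 39 had a higher signal in SP. Of the 7549 genes, 3.10% were as much higher, 1.43% as much lower, and 40.1% had a higher signal in SP. The median difference of the 46 was 0.22, against 0.00 over all 14232 genes. Each count by list below stands against these same shares, and with at most 10 genes of a list at or above the floor, 1 gene moves its share widely. The lists were drawn up with earlier results of these arrays known, and no list was tested. The 8 genes were NFIL3, DYRK1A, PPARGC1A, KLF10, NOCT, CREB1, NR3C1 and MRTFA, at least 1 from every list except the partners of CLOCK with the ROR receptors and the D-box activators.

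**Figure D4:**
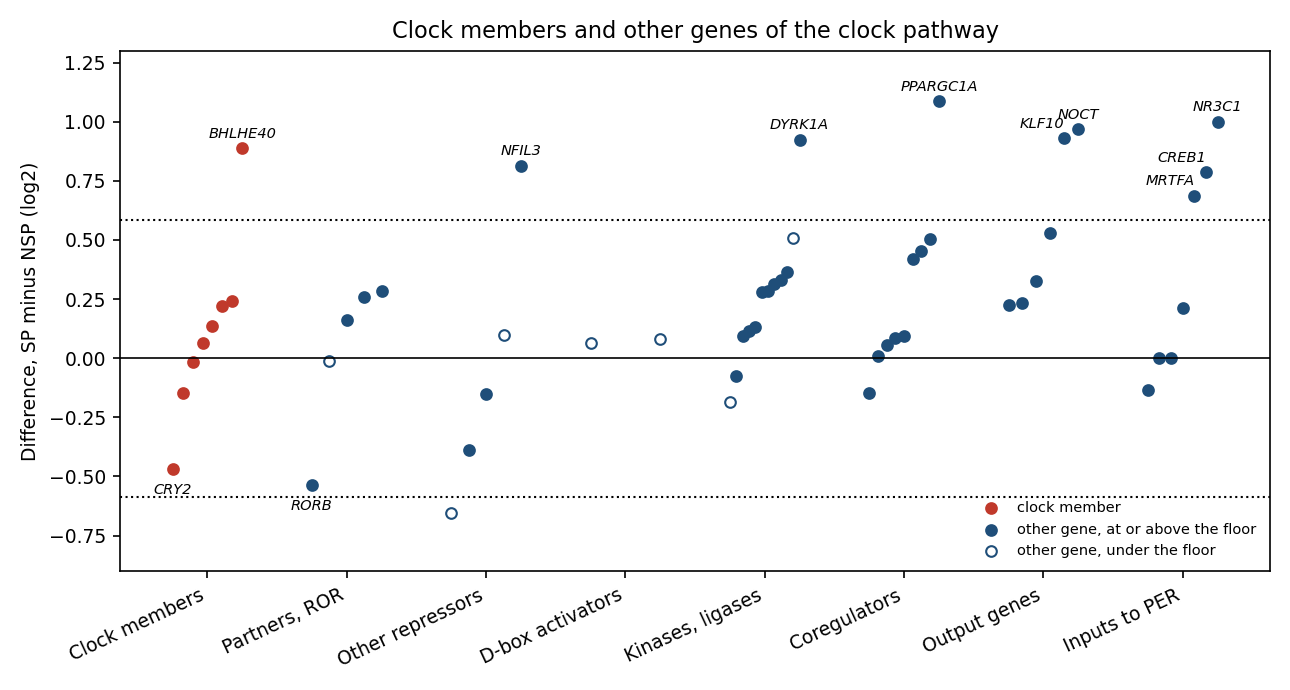
SP minus NSP (log2, vertical axis) for the clock genes (red) and for the measured genes of 7 further lists (blue), each point 1 gene on 1 pair of arrays. Open points are under the floor on both arrays, and dotted lines mark 1.5-fold. Named are CRY2, RORB and the genes at or above the floor beyond 1.5-fold, of which BHLHE40 is the clock member.

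Among the other repressors of the loop NFIL3 was the 1 gene of 3 at or above the floor that was 1.5-fold higher, against 3.10% of the 7549 genes. It was also the only 1 of these 3 with a higher signal in SP, against 40.1% of the 7549 genes, and the other 2 were lower. TIMELESS, the relative of the fly clock gene that acts at replication forks in mammals, was 8.23 in SP and 8.62 in NSP, 1.31-fold lower in SP. CIPC, an inhibitor of CLOCK, had a difference of -0.15. CIART (CHRONO), a repressor of BMAL1 and CLOCK, was 5.91 in SP and 6.56 in NSP, dim on both arrays. BHLHE41 (DEC2), the paralog of BHLHE40, was also under the floor, at 6.93 in SP and 6.84 in NSP. So of the DEC paralogs only BHLHE40 gave a signal above the floor. Signal depends on the probes, so this does not show that BHLHE41 is absent.

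Of 12 measured kinases, ubiquitin ligases and deubiquitinases that act on clock proteins, 10 reached the floor and 1 was 1.5-fold higher, against 3.10% of the 7549 genes. This was DYRK1A, a kinase that in mouse phosphorylates CRY2 ahead of its degradation, with 9.72 in SP and 8.80 in NSP, 1.90-fold higher in SP. GSK3B, which phosphorylates CRY2 after it, had a difference of 0.12, and CSNK1D, a casein kinase that phosphorylates PER proteins, one of -0.07. Of the 10 at or above the floor, 9 had a higher signal in SP, against 40.1% of the 7549 genes. At 1.2-fold 6 of them, DYRK1A included, were higher and 0 lower, against 11.3% and 16.5%. The arrays measure RNA, so phosphorylation of CRY2 was not observed.

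Of 9 measured coregulators all 9 reached the floor and 1 was 1.5-fold higher, against 3.10% of the 7549 genes. PPARGC1A (PGC-1 alpha), a coactivator that in mouse stimulates BMAL1 transcription together with ROR receptors, was 10.73 in SP and 9.64 in NSP, 2.12-fold higher in SP. Its relative PPARGC1B was 8.50 in SP and 8.05 in NSP, 1.37-fold higher. SIRT1, a deacetylase that acts on clock proteins, was 8.08 in SP and 7.57 in NSP, 1.42-fold higher. HDAC3, the deacetylase that the REV-ERB receptors recruit, had a difference of -0.15. It was the 1 coregulator with a lower signal in SP, while 8 of the 9 had a higher one, against 40.1% of the 7549 genes. At 1.2-fold 4 were higher and 0 lower, against 11.3% and 16.5%.

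All 6 measured output genes, which are rhythmic in many tissues, had higher signals in SP, against 40.1% of the 7549 genes, and 2 were 1.5-fold higher, against 3.10%. NOCT (nocturnin), a rhythmic phosphatase, was 10.08 in SP and 9.11 in NSP, 1.95-fold higher in SP. KLF10, a zinc finger repressor under clock control in mouse liver, was 10.12 in SP and 9.20 in NSP, 1.90-fold higher. WEE1, the kinase that restrains entry to mitosis, was 8.88 in SP and 8.35 in NSP, 1.44-fold higher. The output gene DBP, by contrast, was lower in SP, as given above.

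Of 7 measured genes through which outside signals reach the PER genes, 3 were 1.5-fold higher and 0 lower, against 3.10% and 1.43% of the 7549 genes. NR3C1, the glucocorticoid receptor, which induces PER1, was 9.35 in SP and 8.35 in NSP, 2.0-fold higher in SP. CREB1, which acts at CREs, was 10.44 in SP and 9.66 in NSP, 1.73-fold higher. MRTFA, an actin-regulated coactivator of SRF, was 8.59 in SP and 7.91 in NSP, 1.61-fold higher. SRF itself, at 9.66 on each array, and the CREB coactivator CRTC1, at 8.27 on each array, were level. Of the 7 genes, 4 had a higher signal in SP, against 40.1% of the 7549 genes, and 2 a lower one. These 2 were CRTC2, with a difference of -0.13, and SRF, with -0.0009. PER1 differed by 0.13, as given above.

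The 3 genes whose pair of values lay nearest to that of BHLHE40, by Euclidean distance over the 2 arrays, were SGK1, FOS and IER3. SGK1 had 11.95 in SP and 10.87 in NSP, FOS 11.68 in SP and 10.96 in NSP, and IER3 11.63 in SP and 10.79 in NSP. Their distances were 0.143, 0.193 and 0.309. This distance uses signal levels, which depend on the probes of each probe set, so it describes the nearness of the numbers and not a likeness of expression between genes.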

How the data were processed

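Each population was measured on 1 array. The authors deposited log2 signal per probe set, made with RMA and Partek per the submitters' processing notes. For versions, probe set definition and genome build, the sources used here give nothing. RMA narrows differences of dim probe sets, the number of arrays limits precision, and the table holds no detection calls.

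Of 22011 probe sets, 14432 carried a single symbol, 2408 several and 5171 none. Symbols were updated through Entrez identifiers in RefSeq GRCh38.p14 (14404 matched) and probe sets averaged into 14232 genes. The quantity was SP minus NSP, and a fold is this log2 difference on the linear scale. Called means at least 1.5-fold, with the higher value at or above the median of all values. No test was run. The computation was checked on simulated data.

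The members and lists were chosen with earlier results of these data known. Named by rule were all members, BMAL1, NPAS2, RORA, and in each list the called genes or otherwise up to 3 with the largest differences at or above the floor, and the 3 genes nearest to BHLHE40. Other list genes (TEF, HLF, TIMELESS, CIPC, CIART, BHLHE41, GSK3B, CSNK1D, PPARGC1B, SIRT1, HDAC3, WEE1, SRF, CRTC1, CRTC2, BMAL2) were named after their values were seen. Alternatives were other floors and thresholds, centring, lowess (span 0.3), quantile normalisation, the brightest probe set, the mean over members and leaving out each member. Python 3.11.15, pandas 2.3.3 and statsmodels 0.14.6 were used.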

Additional observations from a re-analysis of the deposited data

How the results depend on the processing

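No paired analysis was possible because each population has 1 array. Centring, removal of the signal trend, quantile normalisation and the brightest probe set moved the 8 clock gene differences by at most 0.09 on the log2 scale, and only NR1D2 changed sign. BHLHE40 stayed the 1 clock gene beyond 1.5-fold under centring, removal of the signal trend and quantile normalisation. All 8 clock genes lay above the floor on both arrays and had 1 probe set each. Both other floors and the brightest probe set therefore could not change their calls, and centring shifts every gene by the same amount. Centring moved BHLHE40 only from 0.887 to 0.892 and quantile normalisation to 0.908, so neither was a strict check of its call. The median over clock genes ran between 0.06 and 0.13 with each member left out. With a threshold of 1.2-fold, 1 clock gene was lower in SP, the other lists had 19 higher and 2 lower, and all genes had 854 higher and 1248 lower. With 2-fold, 0 clock genes were higher, the other lists had 2 higher, and all genes had 46 higher and 9 lower. With no floor, 1 gene of the other lists (CIART) was lower in SP and 175 of all genes. The narrower or wider threshold and the missing floor set these counts by construction. Without replicates the precision of any value is unknown.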

Other observations

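The motifs searched above were also counted in the promoters of all genes, as a description with no test. A match does not show which protein binds, and whether the clock bears on these shares was not tested. Of the 7549 genes at or above the floor, 6281 had a RefSeq promoter window. Genes with the E-box in a window numbered 845, of which 4.38% had a signal 1.5-fold or more higher in SP and 0.947% as much lower. Among the 5436 genes without it the shares were 2.92% and 1.43%, and the median differences were -0.05 with and -0.05 without. The nuclear receptor core was present for 805 genes, of which 4.47% were at least 1.5-fold higher, against 2.92% of the 5476 genes without it. The D-box TTATGTAA or TTACATAA was present for only 41 genes, with a median difference of 0.09, against -0.05 for the 6240 genes without it. Of the 41, 4 reached 1.5-fold with SP the higher (9.76%) and 0 with SP the lower, against 3.08% and 1.38% of the 6240 genes without it. These were NR3C1 (2.0-fold), PIK3R3 (1.96-fold), GRAMD2B (1.95-fold) and MARCHF7 (1.77-fold), named after their values were seen. PIK3R3 reached the floor only in SP, at 7.61, and was under it in NSP, at 6.63. The palindromic D-box TTACGTAA was present for 12 genes, of which 0 reached 1.5-fold either way, with a median of -0.05. For the E′-box, 3.62% of 470 genes with it were at least 1.5-fold higher, against 3.08% of those without. For the CRE the shares were 3.09% of 259 genes with it and 3.12% of those without, and for the CRE core 3.37% of 2639 and 2.94%. NR1D2, which is among the 41 with the D-box TTATGTAA or TTACATAA, had a difference of -0.02.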
